A study of Homo sapiens with 3 samples.

Results

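Of the 197044 H3K4me1 regions under 10 kb on chromosomes 1 to 22 of LNCaP cells, 13326 lay wholly inside a region of H3K27ac. They were chosen by the deposited coordinates of both lists, as H3K4me1 regions with every base pair covered by H3K27ac, and are called enclosed regions here. They made up 6.76% of the H3K4me1 regions (exact 95% interval 6.65% to 6.87%) and 19.8% of the 67176 that touched H3K27ac at all. The other touching regions, 53850 in number, stuck out of H3K27ac at an edge or between neighbouring H3K27ac regions, and 129868 touched none.

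LNCaP is an established, androgen-responsive line grown from a metastatic human prostate carcinoma. The data are ChIP-seq of H3K27ac and of H3K4me1 in this line without further treatment named, with 1 library and 1 list of regions per mark, in hg19 coordinates counted here from 1. Chromatin had been sheared mostly to fragments of 200 to 600 bp. An input library belongs to the series and was not analysed here, nor were PrEC and PC3, a normal and a cancer cell type of prostate named in the series design.

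H3K4me1 is laid down by the MLL family of methyltransferases and marks enhancers, active or only primed, and the flanks of active promoters. H3K27ac is laid down by the CBP family of acetyltransferases and marks enhancers and promoters in use. At an active promoter the centre usually carries trimethylated rather than monomethylated H3K4, with H3K4me1 on either side. An H3K4me1 region inside H3K27ac is the arrangement in which the H3K27ac region is at least as wide as the H3K4me1 region.

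Each mark had a single library, so no spread between replicates could be measured and no test was run. The intervals are exact binomial (Clopper-Pearson) or, for medians, order-statistic intervals over regions. Regions of 1 library share their source and neighbours, so these intervals, which take in counting error alone, understate the uncertainty. The lists hold no read counts, so the depth is unknown. Width, margins and number per H3K27ac region follow in part from the rule that chose the regions and are given as descriptions.

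Enclosed regions were of moderate width. Their median was 1100 bp (quartiles 850 and 1600 bp), against 1900 bp (1200 and 3000 bp) for partly covered regions and 900 bp (650 and 1100 bp) for those outside H3K27ac. Together they spanned 18.6 Mb, or 6.67% of the H3K4me1 length in regions under 10 kb. Narrow regions that met H3K27ac were enclosed more often than wide ones. Among touching regions under 750 bp, 49.7% (48.3% to 51.2%) were enclosed, against 27.4% (26.8% to 28.1%) at 1000 to 1500 bp and 4.20% (3.41% to 5.11%) at 6 to 10 kb. As a share of all H3K4me1 regions of a width, enclosure was most frequent at 1000 to 1500 bp, with 9.60% (9.34% to 9.85%), and reached 4.82% under 750 bp and 4.06% at 6 to 10 kb. The reverse arrangement was more common: 23253 of 68724 H3K27ac regions under 10 kb (33.8%, 33.5% to 34.2%) lay wholly inside H3K4me1. The lists differ in size, with 197044 H3K4me1 regions under 10 kb, so the shares of the 2 arrangements are not like for like.

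The enclosing H3K27ac region was wider than most. Counted once per enclosed region, its median width was 3150 bp (interval 3100 to 3200 bp, quartiles 2150 and 5050 bp). Counted once each, the 10725 enclosing regions had a median of 2750 bp. The 47125 H3K27ac regions that H3K4me1 touched, with none under 10 kb enclosed, had a median of 1600 bp, and the 11310 it did not touch a median of 1000 bp. Only a region with space can enclose another, so this order follows in part from the rule. The 10725 enclosing regions were 15.5% of the 69160 H3K27ac regions on these chromosomes and held 37.8 of their 140.1 Mb. Every enclosed region lay in a single H3K27ac region, because the closest H3K27ac neighbours were 50 bp apart.

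The share of H3K27ac regions that enclosed H3K4me1 regions under 10 kb rose through all 8 width classes. It was 1.01% (0.857% to 1.18%) under 1 kb, 12.8% (12.2% to 13.4%) at 1.5 to 2 kb, 35.3% (34.1% to 36.5%) at 3 to 4 kb and 67.2% (62.6% to 71.6%) at 10 kb or more. Per 10 kb of H3K27ac length, the number of enclosed regions rose from 0.138 under 1 kb to 1.01 at 2 to 3 kb and 1.56 at 10 kb or more. Above 2 kb this density changed much less than the share.

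**Figure D1:**
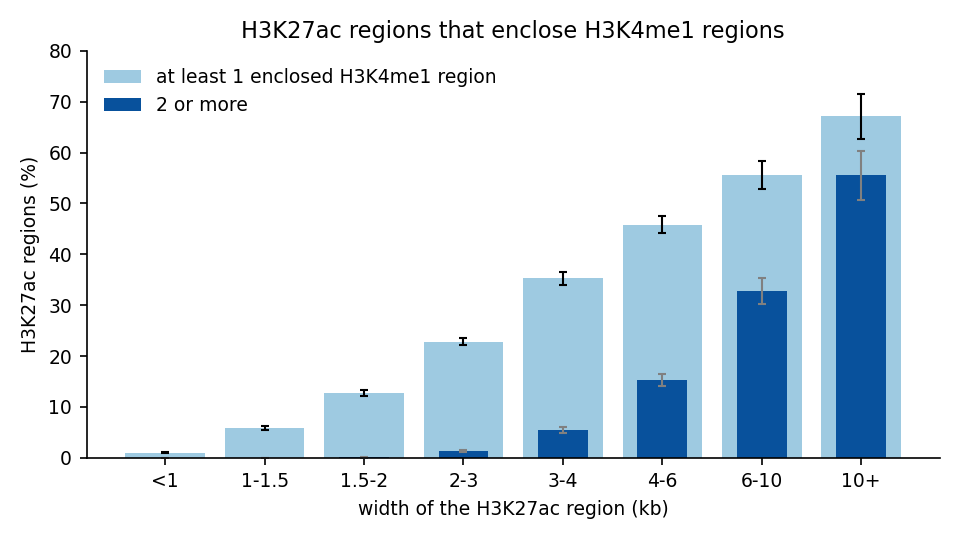
Share of H3K27ac regions (%) that enclosed at least 1 H3K4me1 region (light bars) or at least 2 (dark bars), by width of the H3K27ac region in kb, with exact 95% intervals. The light bars rise from 1.01% under 1 kb to 67.2% at 10 kb or more, and the dark bars from 0 under 1 kb to 55.5%.

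Enclosed regions filled a median of 38.5% of their H3K27ac region (quartiles 24.3% and 56.9%). At one end, 91 had exactly the same start and end as the H3K27ac region, and at the other, 793 (5.95%) filled 10% or less of it. H3K27ac of 10 kb or more held 1100 enclosed regions (8.25%), and H3K27ac under 2 kb held 2758 (20.7%). Own width and enclosing width rose together, as they must. The median enclosing width was 2300 bp for enclosed regions under 750 bp, 2950 bp at 1000 to 1500 bp and 13300 bp at 6 to 10 kb. The room, meaning the enclosing width minus the region's own width, varied less: its median was 1700 bp, 1800 bp and 5825 bp in these classes, and it stayed between 1650 and 1950 bp in all 5 width classes under 3 kb.

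The widest enclosed region lay at chr11:65183201-65193000, 9800 bp wide, starting 700 bp into an H3K27ac region of 34400 bp that enclosed 7 in all. The next were at chr11:67394101-67403750 (9650 bp, inside 14200 bp of H3K27ac) and chr22:46468901-46478450 (9550 bp, near the middle of 82000 bp of H3K27ac, with margins of 38550 and 33900 bp). The limit of 10 kb left out 25 wider H3K4me1 regions that H3K27ac also covered in full. The narrowest of them was at chr21:42869151-42879350, 10200 bp wide.

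The edge of the rule fell in a continuous run of arrangements. On the 50 bp grid of the lists, 1608 enclosed regions shared at least 1 edge with their H3K27ac region, and just outside the rule 1784 partly covered regions stuck out by 50 bp and 1810 by 100 bp. The widest that missed by 50 bp was at chr1:207994001-208002750, 8750 bp wide and 99.4% covered. Over all partly covered regions the median share covered was 61.5%.

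Most enclosed regions lay across the midpoint of their H3K27ac region, but fewer than would follow from positions counted as if each region were alone. The midpoint was covered by 57.4% (56.5% to 58.2%), against 62.6% of allowed positions. The nearer margin had a median of 300 bp and the farther margin 1450 bp. In 44.3% of regions the nearer margin was 200 bp or less, in 19.2% it was 1 kb or more and in 2.81% 5 kb or more. A margin of 0 was the most frequent single value on both sides, with 828 regions at the left edge and 871 at the right. At 100 bp the counts were 648 and 649, and at 300 bp 436 and 420. The sides thus mirrored each other.

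To allow for the space each region had, its place was written as the left margin in percent of the room, which is 0 at the left edge and 100 at the right edge. Of the 13235 enclosed regions with any room, the room being cut into 3 equal parts, 26.1% (25.4% to 26.9%) lay in the middle part, 36.4% in the left and 37.5% in the right. The middle part held 33.2% of the positions that the 50 bp grid allowed these regions, each taken as if alone. The outermost 10% of the room on each side together held 31.6% of regions (30.8% to 32.4%) and 24.4% of allowed positions. With a room of at least 1 kb, where the grid matters less, the middle part held 25.2% (24.3% to 26.0%) of 9781 regions and 33.4% of positions.

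The place differed with the other H3K4me1 regions in the same H3K27ac region, and not in one direction. Where another H3K4me1 region crossed the left edge only and 1 was enclosed, 75.8% (73.7% to 77.7%) of the enclosed regions lay in the right part and 3.29% in the left. Where one crossed the right edge only, 75.9% (73.8% to 77.8%) lay in the left part. With both edges crossed, 50.7% (46.8% to 54.5%) of 669 lay in the middle part. With 2 enclosed, 19.7% (18.2% to 21.3%) lay in the middle part, against 33.4% of positions, and with 3 or more 29.99% (27.8% to 32.3%), against 33.3%. Regions do not overlap within a list, so a crossing region takes up space on its side, and enclosed regions of the same H3K27ac region keep each other apart. The shares of positions ignore such neighbours. They therefore do not give what was open to regions with neighbours, and a shortfall in the middle with 2 enclosed follows in part from this.

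The 4771 enclosed regions that were the only H3K4me1 region touching their H3K27ac region show the place without such neighbours. Of the 4680 with room, 29.2% (27.9% to 30.6%) lay in the middle part, against 32.9% of allowed positions. With a room of at least 1 kb the share was 27.8% (25.8% to 29.9%) of 1892, against 33.4%. Below 500 bp of room it was 32.0% (29.5% to 34.6%), against 32.1% of positions. The shortfall in the middle was thus smaller among lone regions than among all, with overlapping intervals of the shares where the room was at least 1 kb, and below 500 bp of room it was within the counting interval. Their H3K27ac regions were narrower, with a median of 2050 bp, and they filled a median of 58.6% of it. Hence 84.0% (83.0% to 85.1%) of them covered the midpoint of the H3K27ac region, more than among all enclosed regions.

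**Figure D2:**
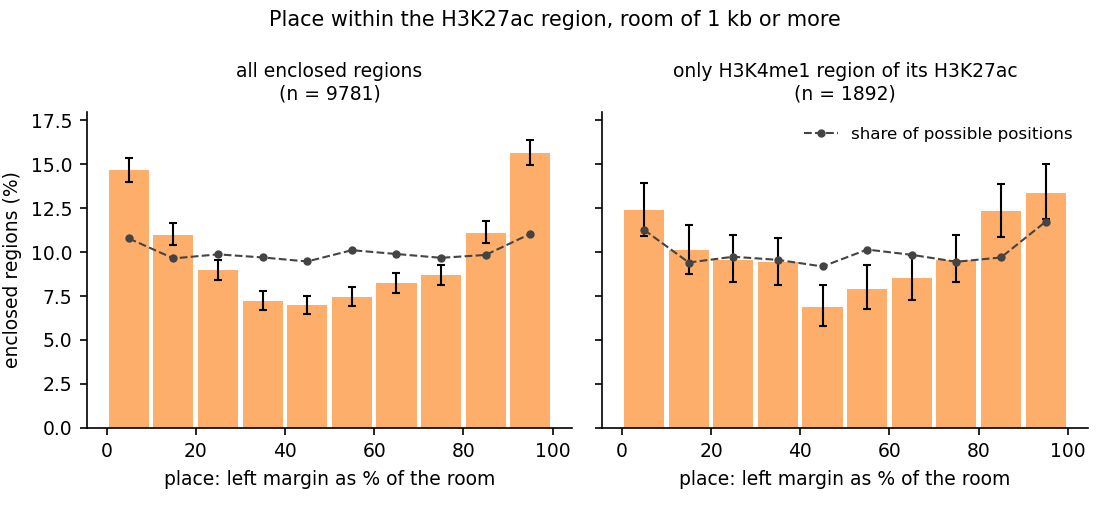
Place of enclosed H3K4me1 regions with a room of at least 1 kb, as the left margin in percent of the room (0 is the left edge). Steps are of 10%, with exact 95% intervals. Dashed points give the share of possible positions, counted as if each region were alone. Over all 9781 regions (left) the outermost steps held 14.7% and 15.7% and the lowest step 7.0%, and the 1892 lone regions (right) show a shallower dip.

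Most enclosing H3K27ac regions held 1 enclosed region. That was the case for 8969 of 10725 (83.6%, 82.9% to 84.3%), while 1340 held 2, 261 held 3 and 85 held 4. A further 70 (0.653%) held 5 or more, and the most in a single region was 31. Because full regions count several times, 32.7% (31.9% to 33.5%) of enclosed regions shared their H3K27ac region with another. Among H3K27ac regions with any enclosed region, those with at least 2 rose from 5.88% at 2 to 3 kb to 33.2% at 4 to 6 kb and 82.6% at 10 kb or more. Other H3K4me1 regions often crossed the edges too: 53.5% of enclosing regions were crossed at neither edge, 38.7% at 1 edge and 7.79% at both.

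Enclosed neighbours stood close together. The gap between consecutive enclosed regions of the same H3K27ac region had a median of 400 bp (quartiles 200 and 900 bp, 2594 gaps), and the enclosure bounds it. Consecutive H3K4me1 regions outside H3K27ac were a median of 5000 bp apart. For 64.7% of enclosed regions (63.9% to 65.5%) the nearest other H3K4me1 region was within 1 kb, against 54.4% of partly covered regions and 33.9% of those outside.

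H3K27ac regions of 10 kb or more took different forms. Of the 436, 143 enclosed no H3K4me1 region under 10 kb, and H3K4me1 of all widths covered a median of 99.4% of their length. The 51 with 1 enclosed region were covered over a median of 93.8%, the 175 with 2 to 4 over 77.7%, and the 67 with 5 or more over 66.3% (interval 57.4% to 69.8%). The last were also the widest, with a median of 20.05 kb against 12.05 kb for those enclosing none under 10 kb. Cover varied within these groups, down to 0% with none enclosed, 18.2% with 1 and 10.5% with 2 to 4. Enclosed regions have gaps beside them, so lower cover with more enclosed follows in part from the rule. Many wide acetylated regions were covered by H3K4me1 almost without a break. In others it was broken into many separate regions, and some held little or none.

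The fullest H3K27ac region lay at chr4:102072951-102194600, the widest of the list at 121.65 kb. It enclosed 31 H3K4me1 regions of 550 to 3550 bp (median 1150 bp), separated by 150 to 7300 bp, which covered 32.2% of it. The enclosed region farthest from any edge in the series was here, at chr4:102135801-102136350, 550 bp wide and 58250 bp from the nearer edge. Next came 4 H3K27ac regions with 17 enclosed each. The widest of them, chr14:30339351-30398150, was 58.8 kb wide, with enclosed regions of median 2150 bp that covered 69.0%. The second widest, chr21:17732351-17782400, was 50.05 kb wide, with no H3K4me1 region crossing its edges and 56.3% covered.

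The next widest H3K27ac regions were mostly covered by H3K4me1, in large part by regions that crossed an edge or were over 10 kb wide. At chr12:65000851-65093200 (92.35 kb) 11 enclosed regions covered 37.8% and H3K4me1 of all widths 89.1%. At chr22:46430351-46512350 (82.0 kb) the values were 5 regions, 23.1% and 94.8%. The widest H3K27ac regions with a single enclosed one under 10 kb were chr8:134506101-134533200, chr11:34640751-34667500 and chr19:33512901-33538850, all between 25.95 and 27.1 kb. The enclosed region in the first was 550 bp wide and those in the others 8300 and 6250 bp, and H3K4me1 covered 98.5%, 94.8% and 91.7% of them.

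A group of 18 H3K27ac regions, picked out after their values were seen, enclosed 10 or more each. They held 253 enclosed regions (1.90%), were at least 26.55 kb wide, and all carried the lowest H3K27ac score, 0.001. They fell into 15 groups at most 100 kb apart, with 3 of them between chr14:30201051 and 30398150 and an adjoining pair between chr21:17688251 and 17782400. Enclosed regions there had a median width of 1250 bp and a median gap of 700 bp. At 8 of the 18 no H3K4me1 region crossed an edge.

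**Figure D3:**
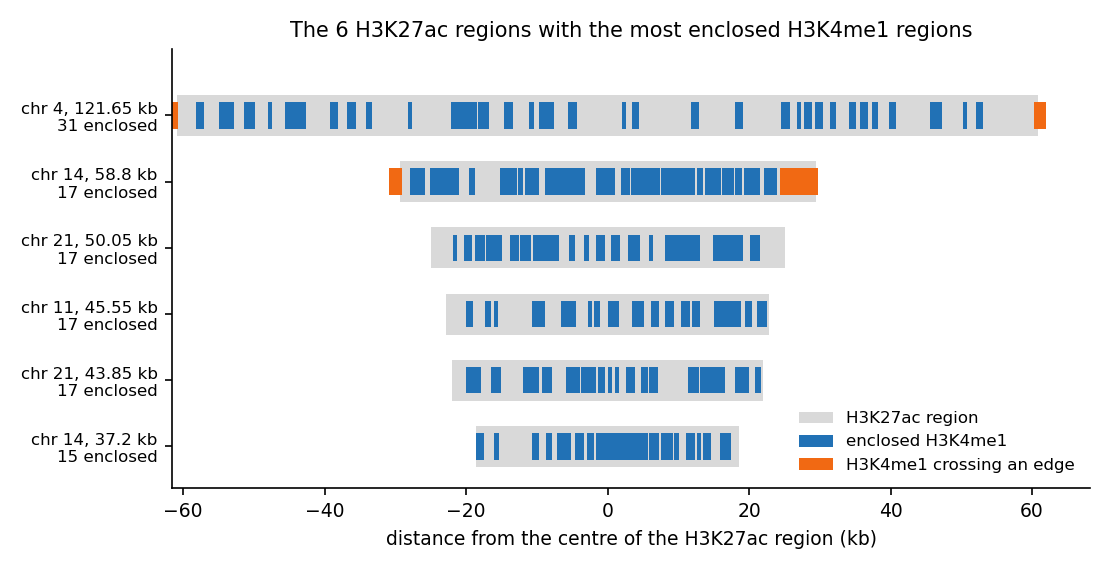
The 6 H3K27ac regions with the most enclosed H3K4me1 regions, drawn to scale by distance from their own centre in kb (grey, H3K27ac; blue, enclosed H3K4me1; orange, H3K4me1 crossing an edge). The region of chromosome 4 holds 31 short, widely spaced regions and that of chromosome 14 with 17 is more densely filled.

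The score is the authors' unnamed value per region, taking 13 values from 0.001 to 0.093 in the H3K4me1 list. Whether a low score stands for a strong or a weak signal is not stated in the sources used here, for either mark. It falls with width: no region of 1000 bp or less had a score of 0.003 or less, and none above 2250 bp a score over 0.05. Among enclosed regions 36.4% (35.6% to 37.2%) had a score of 0.003 or less, against 62.6% of partly covered regions and 12.3% of those outside. Most of the distance to the partly covered regions went with width. Weighted to the widths of the enclosed regions, the shares were 36.4% for enclosed, 34.8% for partly covered and 25.7% for outside. At 1000 to 1500 bp, for example, they were 35.7% (34.4% to 37.1%), 35.1% (34.3% to 35.9%) and 14.6% (14.2% to 14.9%). At equal width, enclosed and partly covered regions thus had low scores about as often, and both more often than regions outside H3K27ac.

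For the share of low scores, enclosing width added little once own width was taken into account. The share with a score of 0.003 or less rose from 8.70% in H3K27ac of 1 to 1.5 kb to 55.6% in H3K27ac of 10 kb or more, while the widths of these enclosed regions alone gave 8.25% and 55.3%. For those sharing their H3K27ac region with at least 2 others it was 45.9% (43.5% to 48.3%), against 45.1% from width. With a room of at least 1 kb it was 33.4% (31.5% to 35.3%) in the middle part and 37.6% (36.5% to 38.7%) in the outer parts, where widths gave 34.8% and 36.6%.

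At 5 of the 13 scores at least 11.3% of regions were enclosed, against at most 8.90% at 7 others, leaving aside 0.001, which 11 regions under 10 kb carried. Of regions scored 0.063, 27.6% (23.2% to 32.3%, 392 regions) were enclosed, and of those scored 0.028, 22.7% (18.7% to 27.1%, 401 regions). The shares were 11.7% at 0.016, 11.3% at 0.044 and 11.4% at 0.093. At the scores between them they were lower, with 3.91% (3.67% to 4.16%) at 0.034 and 3.58% (3.4% to 3.76%) at 0.081. The 5 scores were picked out after these values were seen, so their higher share among enclosed regions follows in part from the choice. Together they were carried by 13.1% (12.5% to 13.7%) of enclosed regions, and, at the same widths, by 8.0% of partly covered regions and 5.53% of those outside. Under 750 bp the shares were 31.96% (30.02% to 33.9%), 19.7% (18.1% to 21.4%) and 11.2% (10.9% to 11.5%). Without weighting to width, they were carried by 13.1% of enclosed regions within 500 bp of another H3K4me1 region and by 13.05% of the rest. Among enclosed regions under 1000 bp, they were carried by 27.6% (25.5% to 29.7%) of the lone ones. Where other H3K4me1 regions shared or crossed the same H3K27ac region, it was 33.6% (31.8% to 35.5%). This share also differed with enclosing width, with 26.5% (23.5% to 29.6%) at 1500 to 2000 bp and 38.4% (34.7% to 42.3%) at 3000 to 4000 bp. In H3K27ac of 10000 bp or more it was 31.2% (24.9% to 38.0%). Lone regions of all widths lay in H3K27ac of median 2050 bp, against 3100 bp where a single region was enclosed and others crossed an edge. The part of enclosing width in this contrast was not tested. No source used here says how the score was made, and what sets the 5 scores apart was not tested.

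**Figure D4:**
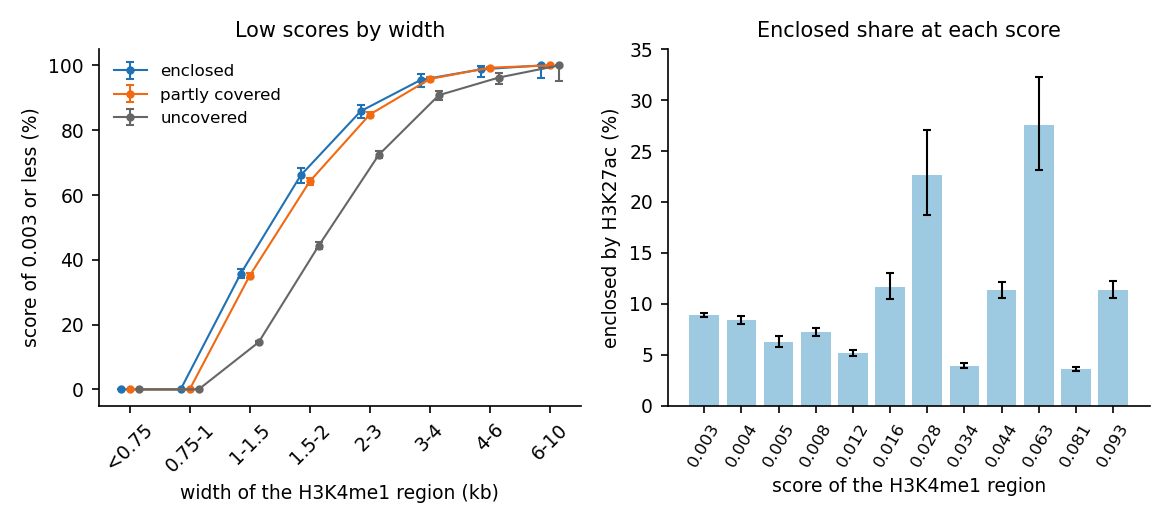
Left, share of H3K4me1 regions (%) with a score of 0.003 or less by width in kb, for enclosed, partly covered and uncovered regions; right, share of regions (%) enclosed by H3K27ac at each score from 0.003 upwards. Bars and lines carry exact 95% intervals: the enclosed and partly covered lines nearly coincide, and enclosure is highest at 0.028 (22.7%) and 0.063 (27.6%).

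The highest score, 0.093, also occurred in wide acetylated regions, though not in the 3 widest enclosing ones. At chr15:89696201-89696750 it belonged to a region 550 bp wide in 67900 bp of H3K27ac, the widest to hold this score, 1300 bp from the nearer edge. At chr21:17735501-17736100 and chr21:17754101-17754700 it belonged to regions of 600 bp in the same 50050 bp, with nearer margins of 3150 and 21750 bp.

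The lowest score, 0.001, belonged to 15 H3K4me1 regions on these chromosomes, 4 of them 10 kb or wider. Of the 15, 2 were enclosed, 13 partly covered and none outside H3K27ac. Both enclosed ones had the same edges in the lists of both marks, at chr19:27731351-27740800 (9450 bp) and chr1:121481851-121486000 (4150 bp), and were the widest of the 91 regions with shared edges. Both directly bordered a stretch of at least 1 Mb without a region of either mark, as did 2 of the 13 partly covered ones. The next widest with shared edges, chr14:91204701-91208000, was 3300 bp wide and scored 0.003.

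The enclosing H3K27ac regions had low H3K27ac scores, as wide regions do. The score of 0.001 was carried by 35.6% of them, against 14.5% of all H3K27ac regions. Against regions of equal width that H3K4me1 touched with none under 10 kb enclosed, 1 of 8 width classes stood apart beyond the intervals. At 6 to 10 kb, 82.9% (79.98% to 85.5%) of enclosing regions had it, against 89.3% (86.5% to 91.7%) of the touched ones. At 10 kb or more the shares were 91.1% (87.3% to 94.1%) and 96.5% (91.9% to 98.8%), with overlapping intervals. From 2 to 3 kb the shares were 17.2% and 17.6%, at 3 to 4 kb 55.3% and 57.0%, and at 4 to 6 kb 73.8% and 76.7%. The intervals overlapped in each of these classes. The share was thus lower for enclosing regions in every class from 2 kb up. Under 2 kb no class exceeded 0.639% in either set.

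The share of H3K4me1 regions that were enclosed differed between autosomes. It was highest on chromosome 4 at 11.2% (10.5% to 11.9%) and chromosome 18 at 11.0% (9.76% to 12.3%), and lowest on chromosome 19 at 3.70% (3.22% to 4.22%), with 3.90% on chromosome 20 and 3.91% on chromosome 17. The intervals of the 2 highest and of the 3 lowest overlapped among themselves. The ratio of H3K27ac to H3K4me1 length moved with it, from 0.400 on chromosome 20 to 0.681 on chromosome 4. Across the 22 chromosomes, which share the libraries and the lists, Spearman's rho between the share and the ratio was 0.93. Its part in the differences was not tested.

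Chromosome 21 stood apart in how its enclosed regions were grouped. Its median enclosing width was 5100 bp, against 2850 to 3550 bp on the other 21, and 55.4% of its enclosed regions shared their H3K27ac region with another. Of its 285 enclosed regions, 125 lay in the window chr21:17000001-18000000, picked after its values were seen as the fullest 1 Mb of the chromosome. Without that window the median was 3000 bp, the share not alone 29.4% and the enclosed share 5.80% (4.96% to 6.74%) in place of 9.72%.

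**Figure D5:**
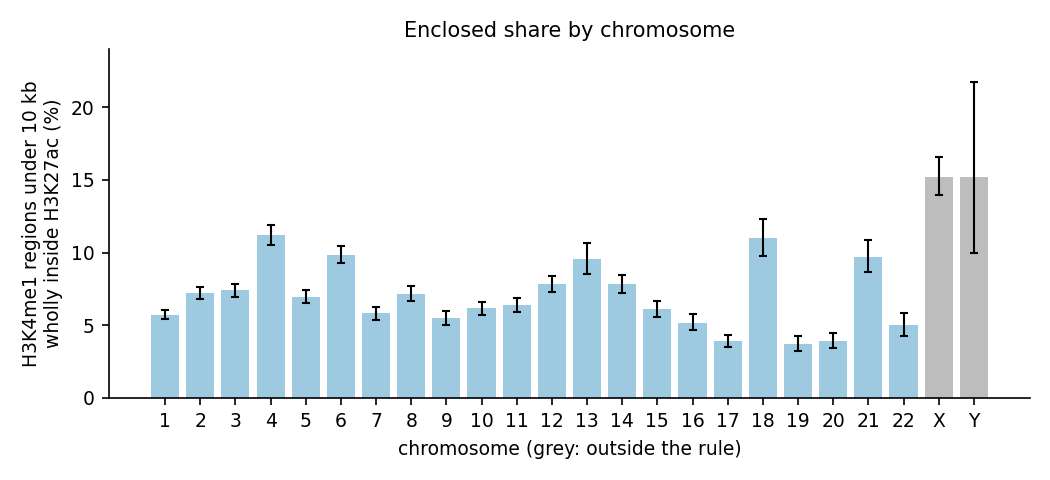
Share of H3K4me1 regions under 10 kb (%) wholly inside H3K27ac on each chromosome, with exact 95% intervals; X and Y (grey) lie outside the rule. Chromosomes 4 and 18 are the highest autosomes at 11.2% and 11.0%, and 19 is the lowest at 3.70%.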

How the data were processed

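Region lists of 2 of the 3 samples were used. Reads were aligned with Bowtie 0.12.8 to hg19, per the submitters' processing notes. How regions were found, at which threshold and whether against the input is not given in the sources used here, although these choices set the number, width and edges of regions. Each deposited list gives chromosome, start, end and an unnamed score per region from the authors, who give no read counts; all edges lie on a 50 bp grid. The score served only to describe regions within a list.

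Starts were read as 0-based. Each H3K4me1 region was set against H3K27ac for covered length, margins, room and place. Place was compared with the mean share of grid positions open to each region, counted as if no other H3K4me1 region were there. Scores were weighted to the exact widths of the enclosed regions (32 had no match outside H3K27ac). Intervals are exact 95% Clopper-Pearson or order-statistic intervals. Containment and margins were tested on simulated lists against a base-by-base count. Computation ran in Python 3.11.15 with pandas 2.3.3, numpy 2.4.6 and scipy 1.17.1, and plots were drawn with matplotlib 3.10.9.

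Regions were named by rule: the 3 H3K27ac regions with most enclosed (ties by width), the 3 widest enclosing, the 3 widest with 1 enclosed, the 3 widest enclosed, the 3 farthest from an edge, the 3 widest with shared edges, the 3 of highest score in the widest H3K27ac, and those just outside the rule. The members, lists and rules were chosen with earlier results of these data known. No hg19 genome or gene annotation was used here, so neither genes nor sequences are given. Alternatives were score limits, merging, other cover, margin, width and chromosome limits and another meaning of centre.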

Additional observations from a re-analysis of the deposited data

Results flagged for a closer look

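The same arrangement occurred among regions that the rule leaves out only by chromosome or width, so their number is a description. On chromosome X, 449 of 2949 H3K4me1 regions under 10 kb were enclosed (15.2%, exact 95% interval 13.9% to 16.6%), above the interval of every autosome. On chromosome Y it was 24 of 158 (15.2%, 9.98% to 21.8%). The H3K27ac regions that enclosed these had median widths of 2950 bp on X and 2350 bp on Y. Of H3K4me1 regions of 10 kb or more on chromosomes 1 to 22, 25 of 656 were enclosed, up to 37500 bp wide.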

How the results depend on the processing

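Of 38 alternative values, 26 left the interval of the main value and 12 did not. The share of H3K4me1 regions enclosed, 6.76%, was 8.30% with H3K4me1 scores up to the list median, 6.21% with H3K27ac scores up to the median, 7.81% after merging H3K27ac within 1 kb, 9.28% with 90% cover, 5.95% with at least 50 bp beyond both edges and 6.89% with X and Y. The median enclosing width, 3150 bp, was 3550, 3350, 3750, 3000 and 3350 bp under the first 5 of these. The share in the middle part of the room, 26.1%, was 24.7% with the H3K4me1 score limit, 26.9% after merging, 19.7% with 90% cover and 29.5% with 50 bp beyond both edges. With 90% cover a margin past an edge counted as 0, so the added regions could not lie in the middle part. The limit of 50 bp removed only regions at an edge. Both of these moves were thus fixed by the settings. Counting the midpoint in the middle part of the H3K27ac region itself gave 52.6%, where possible positions gave 60.7%. Settings added after seeing the data gave 25.2% with a room of at least 1 kb and 29.2% for lone regions. The share of enclosing regions with 2 or more, 16.4%, was 12.9% with the H3K4me1 and 18.2% with the H3K27ac score limit, and 20.9% after merging. The share with a score of 0.003 or less, 36.4%, was 58.8% with the H3K4me1 score limit, which removes high scores by construction, 39.0% with the H3K27ac limit, 38.8% after merging, 44.0% with 90% cover and 35.6% under 5 kb. For the share of H3K4me1 regions enclosed, the direction of some moves also followed from the settings. Merging H3K27ac and 90% cover can only add enclosed regions. The H3K27ac score limit and the limit of 50 bp can only remove them. The limit of 5 kb removed regions that nearly all had low scores. Every enclosed region of 6000 to 10000 bp scored 0.003 or less, as did 98.8% at 4000 to 6000 bp. The size of these moves and the cause of the remaining ones were not tested. No paired analysis was possible because there is a single library of either mark. With the depth unknown, places outside the listed regions may still carry the mark.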
